A study of Mus musculus with 6 samples.

Results

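The Hox genes are the 39 homeobox transcription factor genes of clusters A, B, C and D of the mouse, and their transcripts were followed here through 6 brain libraries. They were the genes of the deposited table whose mouse symbol is Hoxa, Hoxb, Hoxc or Hoxd followed by a number, 39 of 78298 genes. They are described by cluster and by paralogue number, the number in the gene's name, which gives its position along the cluster. Polyadenylated RNA of the left brain was sequenced in 6 male mice, 3 of them wild type and 3 Top2b-low. Top2b encodes topoisomerase IIβ, and Top2b-low mice are homozygous for an auxin-inducible degron tag that was put in front of its coding sequence with CRISPR/Cas9, with no compound given. The degron tag lies at the endogenous gene, so it is carried by every cell of the animal, and the labels name no Cre or transgene. The labels give the age once as 10 weeks and once as 3.5 months. The names of 2 libraries, wild type replicate 3 and Top2b-low replicate 3, begin with N22, and the labels do not say what N22 is. The latter name ends in dNdN where the other Top2b-low names end in Homo, and the labels do not explain that ending either.

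Hox genes are switched on in the embryo in the order in which they lie along their cluster, and they give cells of the hindbrain and spinal cord their position between head and tail. Genes with low numbers reach furthest forward, into the rhombomeres of the hindbrain, while genes with high numbers are kept to the spinal cord and the tail end of the body. The midbrain and forebrain form without them, so in a whole-brain extract adult Hox transcripts come mainly from neurons of the pons and medulla and from any spinal cord left attached. In embryos, retinoic acid induces the low-numbered genes through receptors that bind AGGTCA elements, Meis and Pbx proteins bind DNA together with Hox proteins, and Polycomb proteins keep silent clusters off.

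The promoters of 4 members show the sequence on which these genes are transcribed. For each cluster the member with the highest mean level among those with a RefSeq promoter window is printed, and the 250 bases before its start are given on the strand of the gene in build GRCm38.p6. Capitals mark the AGGTCA element, read on either strand. The windows are Hoxa5 (chr6:52204588-52204837, minus strand), Hoxb4 (chr11:96318017-96318266, plus strand), Hoxc4 (chr15:103034145-103034394, plus strand) and Hoxd3 (chr2:74711743-74711992, plus strand).
Hoxa5: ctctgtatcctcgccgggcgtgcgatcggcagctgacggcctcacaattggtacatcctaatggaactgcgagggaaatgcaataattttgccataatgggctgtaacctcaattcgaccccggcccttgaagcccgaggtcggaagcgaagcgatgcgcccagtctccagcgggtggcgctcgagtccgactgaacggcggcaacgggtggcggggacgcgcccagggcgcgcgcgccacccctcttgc
Hoxb4: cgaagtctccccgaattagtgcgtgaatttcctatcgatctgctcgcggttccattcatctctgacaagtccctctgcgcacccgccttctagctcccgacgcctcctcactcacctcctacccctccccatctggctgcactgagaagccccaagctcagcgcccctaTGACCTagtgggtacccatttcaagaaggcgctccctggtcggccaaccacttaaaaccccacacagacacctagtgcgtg
Hoxc4: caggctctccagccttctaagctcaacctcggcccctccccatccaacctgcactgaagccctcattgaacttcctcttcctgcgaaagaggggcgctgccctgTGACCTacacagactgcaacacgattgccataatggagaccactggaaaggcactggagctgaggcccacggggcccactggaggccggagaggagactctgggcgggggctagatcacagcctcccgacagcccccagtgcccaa
Hoxd3: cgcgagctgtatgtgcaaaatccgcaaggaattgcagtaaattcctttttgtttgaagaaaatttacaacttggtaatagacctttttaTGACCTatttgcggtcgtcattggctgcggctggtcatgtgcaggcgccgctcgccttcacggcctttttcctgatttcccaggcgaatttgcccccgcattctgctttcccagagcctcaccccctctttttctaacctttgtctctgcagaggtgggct
Counted from the start, the element began at −81 in Hoxb4, −146 in Hoxc4 and −161 in Hoxd3, as TGACCT on the printed strand, and at 41 in Hoxa5, outside the printed bases. Windows of 300 bases, from 250 before to 50 after the start, were found for 22 of the 39 genes (24 windows). The nuclear receptor element AGGTCA was in 7 of the 24 (29.2%), against 16.3% of all 32851 windows. The PBX-HOX core TGATNNAT was in 4 (16.7%, against 8.85% of all), among them Hoxb8 and Hoxa2, and the MEIS core TGACAG in 2 (8.33%, against 19.2%), Hoxa2 and Hoxa3. All 3 motifs were searched on both strands, and none of the motif strings is contained in another. The Hox windows held a median of 14.5 CpG dinucleotides against 7 over all windows. A match is a run of letters and was not tested as a binding site.

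The libraries held 16963067 to 35246703 reads, the whole-number counts that could be recovered from the deposited normalised counts. Top2b itself stood at 3160, 3014 and 2485 normalised counts in wild type replicates 1 to 3 and at 2152, 2314 and 1965 in Top2b-low replicates 1 to 3. No Top2b-low library reached a wild-type one, although among the 4 libraries outside N22 the log2 difference of −0.47 did not pass limma (adjusted p = 0.365). The 2 N22 libraries stood apart from the other 4 in the cerebellum: Gabra6, which granule cells of the cerebellum use in their GABA receptors, was at 2020 to 2348 normalised counts in the 4 libraries and at 0.71 and 0.59 in the N22 pair. They are therefore described apart below.

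Hox transcripts were present in all 4 libraries outside N22 and nearly missing in the N22 pair. The 39 genes summed to 223.5 and 366.0 normalised counts in wild type replicates 1 and 2 and to 118.1 and 103.2 in Top2b-low replicates 1 and 2. The sums in the N22 libraries were 1.42 in wild type and 3.55 in Top2b-low. The lowest of the 4 thus lay far above both N22 libraries, and within the 4 both wild-type sums lay above both Top2b-low sums. In reads, this was 184, 292, 96 and 85 reads in the 4 libraries and 2 and 6 in the N22 pair, although the N22 libraries were the deepest.

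**Figure D1:**
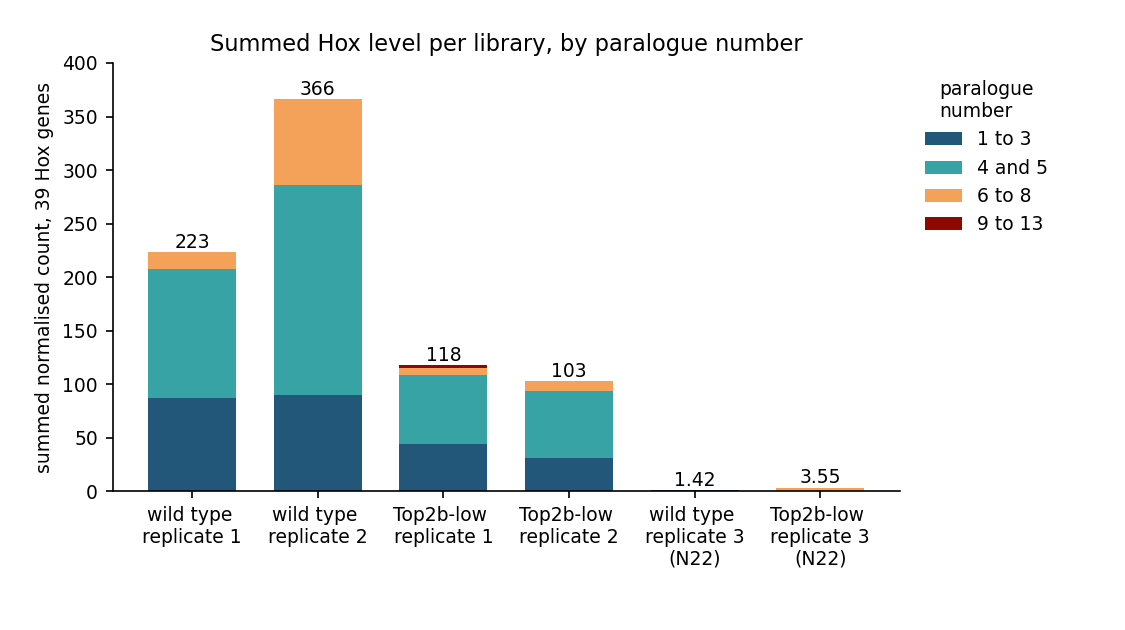
Summed normalised count of the 39 Hox genes (vertical axis, linear) in each library (horizontal axis), with each bar split by paralogue number. The 4 bars outside N22 run from 103 to 366, and the N22 bars stand at 1.42 and 3.55.

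Of the 39 genes, 23 had at least 1 read in some library and 16 had none in all 6. The split followed position along the cluster. Of the 15 genes numbered 1 to 5, 14 were above 0, the exception being Hoxb1, a gene of the fourth rhombomere. Of the 8 genes numbered 6 to 8, 7 were above 0, the exception being Hoxc8. Of the 16 genes numbered 9 to 13, which pattern the thoracic to tail levels of the spinal cord, 14 were at 0 in every library, and Hoxb13 and Hoxd13 had 1 read each in Top2b-low replicate 1. A gene at 0 may have stood at up to 1.77 to 3.76 normalised counts, the value of 3 reads in the deepest and the shallowest library, so low levels would not have been seen.

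**Figure D2:**
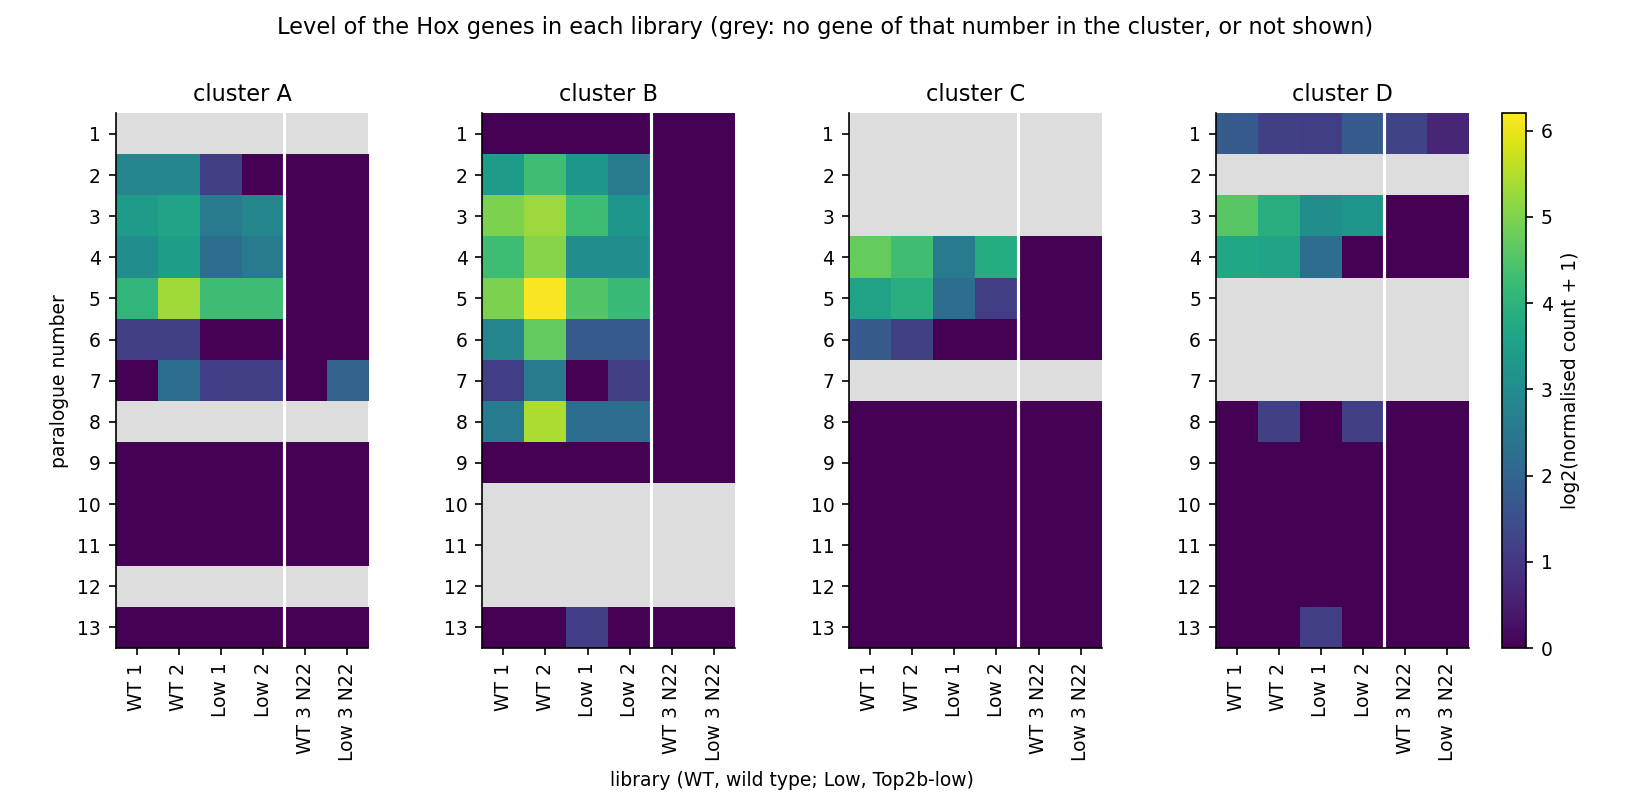
Level of each Hox gene as log2(normalised count + 1) (colour), by paralogue number (rows), library (columns) and cluster (panels), with grey where a cluster has no gene of that number or the gene is not shown. The signal lies at numbers 1 to 8 of the 4 libraries left of the white line, and only Hoxd1 and Hoxa7 show any in the N22 columns.

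Per kb of transcript, the most abundant members were Hoxb5 and Hoxa5 of group 5, which act in the caudal hindbrain and cervical cord. Hoxb5 stood at 18.4 ± 12.7 and Hoxa5 at 12.2 ± 5.73 normalised counts per kb (mean ± SD of the 4 libraries outside N22). Hoxb3, Hoxc4, Hoxb2 and Hoxb4 came next, at 7.44 ± 4.03, 7.38 ± 4.11, 6.45 ± 3.63 and 6.38 ± 4.66. Then came Hoxb8 (5.20 ± 7.32), Hoxb6 (4.59 ± 5.52), Hoxd3 (4.44 ± 2.41) and Hoxa4 (4.06 ± 1.76). Members of all 4 clusters were thus among the 10 highest, 6 of them from cluster B. In this order of 23 genes none of the 22 neighbouring pairs differed by more than the larger SD of the pair, so the order is fixed only between its ends.

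By cluster, cluster B on chromosome 11 gave the most. Its 10 genes summed to 100.8 and 231.9 normalised counts in wild type replicates 1 and 2 and to 64.0 and 44.9 in Top2b-low replicates 1 and 2. Cluster A on chromosome 6 summed to 46.2, 72.7, 32.0 and 31.6 in the same libraries, cluster C on chromosome 15 to 38.9, 33.8, 8.61 and 14.6, and cluster D on chromosome 2 to 37.7, 27.6, 13.5 and 12.1. Cluster B held 45.1% and 63.4% of the Hox reads in the 2 wild-type libraries and 54.2% and 43.5% in the 2 Top2b-low libraries. In each of the 4 clusters the 2 Top2b-low sums lay below the 2 wild-type sums.

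The reads of some members could be shared with other transcripts of the clusters. Whether counting used strand is not given in the sources used here, and exons that overlap on the same strand could share reads either way. In the GENCODE vM21 annotation the exons of Hoxb3 and Hoxb2 overlap the antisense transcript Hoxb3os, and those of Hoxb5 overlap Hoxb5os. Exons of Hoxd3 overlap the antisense Haglr, and those of Hoxd3 and Hoxd4 the antisense Hoxd3os1. On the same strand, exons of Hoxd3 and Hoxd4 overlap each other and Gm28230. Those of Hoxc5 overlap Hoxc10 on the same strand, and those of Hoxa2 and Hoxa3 overlap Gm28308. Hoxb3os stood at 8.50, 15.0, 3.69 and 3.64 normalised counts in the 4 libraries and at 0 in both N22 libraries, and Hoxb5os had 1 read in all. Hoxa5, Hoxb4 and Hoxc4 overlap no annotated exon of another gene, and their values stand beside those of Hoxb3 and Hoxb5 below.

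The first comparison set the 2 N22 libraries, 1 of each genotype, against the other 4, to describe how far the Hox content of the extracts differed. Hoxb5 stood at 30.4 and 70.2 normalised counts in wild type replicates 1 and 2 and at 22.1 and 16.996 in Top2b-low replicates 1 and 2, and Hoxa5 at 15.8, 38.9, 18.5 and 18.2. Hoxb3, a gene of rhombomeres 5 and 6 and the cord behind them, stood at 30.4, 37.6, 18.5 and 8.50. All 3 had no read in either N22 library.

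Hoxb4 and Hoxc4, genes of group 4 whose forward limit lies in the caudal medulla, followed the same pattern. Hoxb4 stood at 18.2, 32.6, 7.38 and 7.28 normalised counts in those 4 libraries and Hoxc4 at 25.5, 18.8, 4.92 and 13.4. Neither had a read in an N22 library. Against the value of 3 reads per N22 library, Hoxb5 was at least 17.9-fold lower there, Hoxb3 at least 12.1-fold, Hoxa5 at least 11.7-fold, Hoxb4 at least 8.38-fold and Hoxc4 at least 8.01-fold.

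These 5 genes were the members that averaged 10 or more normalised counts over the 6 libraries, the minimum for testing. With genotype in the model, limma called all 5 lower in the N22 libraries, at Benjamini-Hochberg adjusted p of 0.000154 for Hoxb5, 0.000335 for Hoxa5, 0.000474 for Hoxb3, 0.00183 for Hoxb4 and 0.00213 for Hoxc4. The fitted differences on log2(normalised count + 1) were −4.96 ± 0.52, −4.48 ± 0.54, −4.44 ± 0.56, −3.86 ± 0.63 and −3.86 ± 0.64 (± SE) in that order, sizes that hang on the pseudocount since the N22 values are 0. Of all 17391 genes tested, 16.7% were called lower and 11.3% higher. The 5 genes passed the minimum only through the libraries in which they were present, so their count is a description and not a measure of how the family differs from other genes.

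A complete absence was rare. Among the 17391 genes tested, 11 had no read in either N22 library (0.0633%), and 5 of those were Hoxa5, Hoxb3, Hoxb4, Hoxb5 and Hoxc4. Another was Tlx3, a homeobox gene of excitatory hindbrain and dorsal horn neurons, and the meiosis gene Sycp1 was a further one. With a minimum mean of 2, 52 of 22263 genes had none (0.234%), and 14 of those were Hox genes, all the members with such a mean. The 5 and the 14 Hox genes passed these minimums only through the other 4 libraries. Their counts are thus a description and not a measure of how the family differs from other genes.

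The 9 further members above a mean of 2 were Hoxa2, Hoxa3, Hoxa4, Hoxb2, Hoxb6, Hoxb8, Hoxc5, Hoxd3 and Hoxd4. Each was at 0 in both N22 libraries. Their lower bounds for the difference ran from 3.31-fold for Hoxa4 to 7.01-fold for Hoxb8, with Hoxd3 at 6.75-fold and Hoxb2 at 5.37-fold, and none can be given for Hoxa2, which had 11 reads in the 4 libraries together. Limma with a minimum mean of 2 called 12 of the 14 lower (12.6% of all genes then tested), and left out Hoxa2 and Hoxd4. These 14 too passed their minimum only through the 4 libraries, so nothing is read from that count. Of the 23 members with any read, 21 had none in either N22 library, against 8.02% of all genes with any read. These 21 were counted only through the other 4 libraries, and 13 of them had reads in each of the 4.

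The 8 Hox reads of the N22 pair came from 2 genes. Hoxd1, which unlike its neighbours is known from sensory neurons as well, had 2 reads in wild type replicate 3 and 1 in Top2b-low replicate 3, and Hoxa7 had 5 reads in the latter. Outside N22 the same genes had 6 and 5 reads in the 4 libraries together. Hoxa7 is overlapped by an antisense transcript, Hoxaas3, which was at 0 in all 6 libraries. Setting 657 reads against 8, scaled by the library factors of the deposited counts, Hox reads were 78.1 times as frequent outside N22. The 95% exact interval of 39.4 to 181.6 covers counting error only.

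Of 11 non-coding genes of the clusters found in the table, 6 had no read in either N22 library, 4 of which had none in any library, and 2 were read in all 6 libraries. The latter were Hotairm1 and Haglr. Hotairm1, a non-coding RNA of cluster A, stood at 7.29, 16.3, 7.38 and 7.28 normalised counts outside N22 and at 6.40 and 3.55 in the N22 libraries. Haglr, in cluster D, stood at 8.50, 6.27, 6.15 and 4.86 outside N22 and at 2.84 and 3.55 within it. Hoxaas2, in cluster A, stood at 3.64, 15.0, 1.23 and 8.50 outside N22 and at 0.711 and 0 within, and Hoxb3os, given above, had none within. None of the non-coding genes of the clusters reached the minimum for testing.

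Genes that lie beside the clusters and are no Hox genes were called about as often as genes at large. Of 22 tested neighbours, 4 were lower (18.2%, against 16.7% of all genes) and 3 higher (13.6%, against 11.3%) in the N22 libraries, with a median log2 difference of −0.03. Mtx2, a mitochondrial import gene next to Hoxd1, was higher by a log2 difference of 0.35 (limma adjusted p = 0.0135), and Nfe2l2, a stress response factor further out on the same side, stood at a log2 difference of −0.57 (adjusted p = 0.00137). Among all 17391 genes the median difference was −0.005.

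Genes that work with or upstream of Hox genes were described from 3 lists, to be read against the 16.7% lower and 11.3% higher among all genes. Of the 11 genes of the TALE class (Pbx, Meis, Pknox and Tgif), which bind DNA with Hox proteins, 2 fell (18.2%) and 3 rose (27.3%) in the N22 libraries. Meis1 stood at 307 to 338 normalised counts in the 4 libraries and at 106.0 and 89.9 in the N22 pair, a log2 difference of −1.72 ± 0.10 (SE). Pbx3 fell by 0.29, while Meis2 and Pknox2 rose by 0.22 each. Of 13 tested genes that switch on or limit Hox expression in the embryo, 5 fell (38.5%) and 1 rose (7.69%), among the former Egr2, the rhombomere 3 and 5 factor, by 1.57, and Cyp26b1, which breaks down retinoic acid, by 1.06. Of 21 tested Polycomb, Trithorax and insulator genes, 8 fell (38.1%) and none rose, Kdm6b by 0.79 and Kmt2a by 0.59.

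Markers of brain regions also differed between the N22 libraries and the other 4. Of 22 tested genes of hindbrain neurons 12 fell (54.5%, against 16.7% of all genes) and none rose (against 11.3%), with a median log2 difference of −1.18, and the list's summed level was 6591 to 8118 normalised counts outside N22 and 4393 to 5730 within. Of the 31 genes of that list 11 are also in another list used here. Slc6a5, the glycine transporter of inhibitory neurons in medulla and cord, stood at 855, 1018, 587 and 422 outside N22 and at 42.0 and 14.8 in the N22 pair. Lbx1, a factor of dorsal hindbrain and cord neurons, stood at 40.1 to 53.4 outside N22 and at 0 and 0.59 within. Of 6 tested genes of the serotonergic and noradrenergic brainstem nuclei 4 fell, and the list's sum was 293 to 656 outside N22 and 95.8 to 156 within.

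The cerebellum derives from the front of the hindbrain and keeps little Hox expression, and its markers fell as well. Of 19 tested genes of granule cells 16 fell (84.2%) and 2 rose, and of 19 Purkinje cell genes 15 fell (78.9%) and 1 rose. Of 20 forebrain genes 1 fell and 10 rose (50.0%, against 11.3% of all genes). Their sum was 52406 to 65248 normalised counts outside N22 and 67507 to 78582 within. Of 8 tested genes of spinal and sensory neurons none fell and 2 rose (25.0%). Genes of other tissue and cells that an extract can hold also differed. Lower in the N22 pair were 7 of 13 for the meninges, 4 of 13 for the choroid plexus, 9 of 14 for astrocytes, 5 of 15 for vessels and 5 of 9 for blood, against 16.7% of all genes, and none of these was higher. The blood list summed to 9304 to 114526 normalised counts outside N22 and to 3795 to 4387 within. The part of these lists in the Hox difference was not tested, and in such bulk extracts fewer cells of a type and less RNA per cell cannot be told apart.

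**Figure D3:**
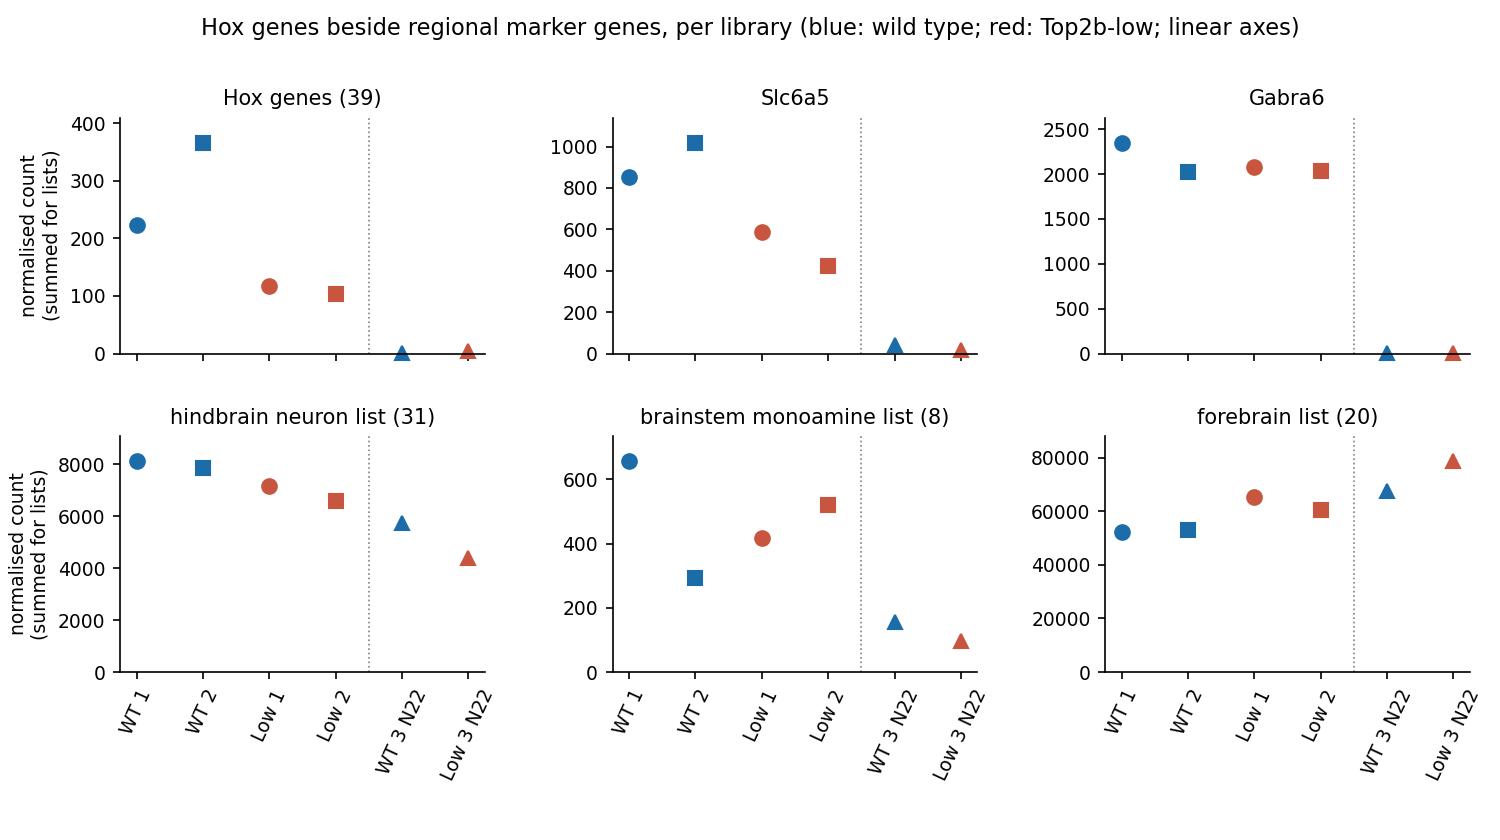
Normalised counts (vertical axes, linear) of the summed Hox genes, of Slc6a5 and Gabra6 and of 3 summed marker lists in each library (horizontal axes, N22 libraries right of the dotted line). The Hox genes, Slc6a5 and Gabra6 lie near 0 in both N22 libraries, while the hindbrain neuron list stays at 4393 or more and the forebrain list is at its 2 highest values there.

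The second comparison set Top2b-low against wild type in the 4 libraries outside N22, 2 against 2, where Hox transcripts could be measured. The summed Hox level averaged 294.7 ± 100.7 normalised counts for wild type and 110.7 ± 10.6 for Top2b-low (SD, n = 2 each), so the Top2b-low mean was 0.375 times that of wild type. Both Top2b-low sums lay below both wild-type sums. The wild-type libraries differed from each other by 1.64 times, more than the Top2b-low ones. With wild type replicate 1 as the only wild-type library the ratio was 0.495.

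Gene by gene the direction was shared by most members. Of the 14 members with a mean of at least 2, the Top2b-low mean was below the wild-type mean in 14, with a median ratio of 0.393 and a range from 0.0997 for Hoxa2 to 0.671 for Hoxa5. The median ratio over all 22263 genes with such a mean was 0.996, and 51.7% of them were lower in Top2b-low. In 13 of the 14 both Top2b-low values lay below both wild-type values, the exception being Hoxa5, against 17.7% of the 22263 genes. Of the 23 members with any read it was 16, against 13.1% of all such genes, and in none of the 23 did both Top2b-low values lie above. Members are not independent of each other, since all 14 were read from the same 4 libraries, and their mean over the libraries is itself raised by high wild-type values.

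**Figure D4:**
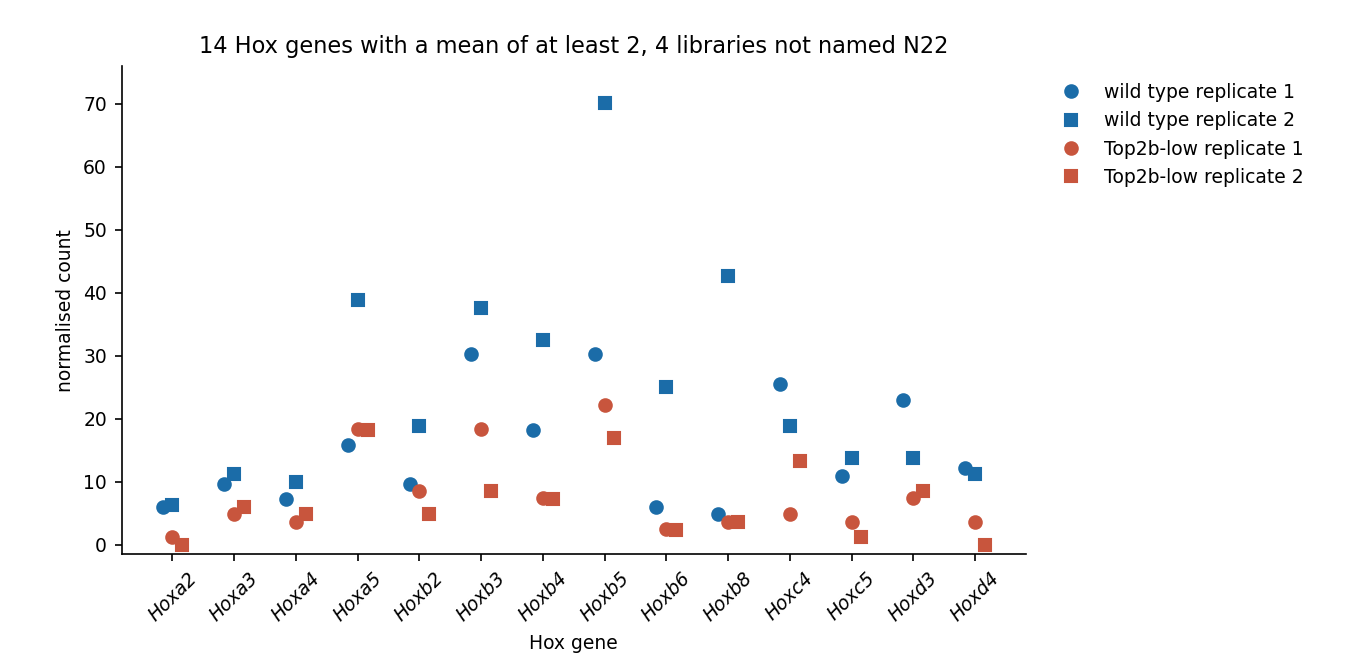
Normalised count (vertical axis, linear) of the 14 Hox genes with a mean of at least 2, in each library outside N22 (wild type blue, Top2b-low red, replicates 1 and 2 as circles and squares). The red points lie below both blue points in 13 genes, Hoxa5 being the exception, and wild type replicate 2 stands far above the rest in Hoxb5, Hoxb8 and Hoxb6.

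No member passed the test of this comparison. The largest difference among the 5 tested genes was that of Hoxb4, with means of 25.4 ± 10.2 normalised counts for wild type and 7.33 ± 0.07 for Top2b-low (SD, n = 2 each). Its log2 difference was −1.61 ± 0.47 (SE), with a 95% interval from −2.67 to −0.55, an unadjusted limma p of 0.00731 and an adjusted p of 0.951. The SD of the 2 Top2b-low values is small because both rest on 6 reads.

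The other 4 tested genes gave log2 differences of −1.36 ± 0.43 for Hoxb3, −1.31 ± 0.53 for Hoxc4, −1.21 ± 0.41 for Hoxb5 and −0.42 ± 0.45 for Hoxa5 (SE). Their unadjusted p in limma were 0.0118, 0.0354, 0.0166 and 0.378, and their adjusted p 0.951, 0.951, 0.951 and 0.959. In Hoxa5 the groups overlapped, wild type replicate 1 being the lowest of the 4 libraries, and without wild type replicate 2 its difference was 0.20 in the other direction.

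None of the 17391 genes passed limma in either direction (0.0%), and 818 had an unadjusted p under 0.05. An unadjusted p under 0.05 with a lower level in Top2b-low was reached by 2.71% of all genes, and by Hoxb3, Hoxb4, Hoxb5 and Hoxc4 of the 5 members. The quasi-likelihood test of edgeR on the recovered reads called none either (823 at an unadjusted p under 0.05), and DESeq2 called 10 genes lower, none of them a Hox gene (344).

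Below the minimum for testing, the ratios of Top2b-low to wild type in the 9 members with a mean of at least 2 included those of Hoxb8 and Hoxb6, 0.154 and 0.157, which rest on wild type replicate 2 as given further on. Hoxa2, which patterns the second rhombomere and the second branchial arch, stood at 6.07 and 6.27 normalised counts in the wild-type libraries and at 1.23 and 0 in the Top2b-low ones. Hoxc5 stood at 10.9 and 13.8 against 3.69 and 1.21, and Hoxd4 at 12.1 and 11.3 against 3.69 and 0. These 3 had close wild-type values, and their Top2b-low values rest on 0 to 3 reads each. All 3 have an exon overlap on the same strand, as given above.

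With the N22 libraries added, 3 against 3, Top2b-low could lie wholly below wild type in no member but Hoxd1. Wild type replicate 3 was at 0 in all the others. The summed level was then 197.0 ± 183.7 normalised counts for wild type and 74.96 ± 62.3 for Top2b-low (SD, n = 3 each). Limma called no gene without an N22 term (262 at an unadjusted p under 0.05) and none with it (1011), and the 5 Hox genes had log2 differences of −0.28 to −1.07. Without an N22 term these signs hung on single libraries: 4 of the 5 were lower without wild type replicate 1, 2 without wild type replicate 2 and 1 without Top2b-low replicate 3. The interaction of genotype with N22, fitted over all 6 libraries, was called in 1 gene with a higher value (0.00575% of all) and 3 with a lower one (0.0173%), none of them a Hox gene.

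In genes 1 to 3 and 6 to 8, shares of Hox reads differed more between the 2 wild-type libraries than between genotype means. Genes 4 and 5 did not follow this. They held 53.8% and 53.4% in wild type replicates 1 and 2 and 54.2% and 60.0% in Top2b-low replicates 1 and 2. Genes 6 to 8, whose forward limits lie in the spinal cord or just ahead of it, held 21.9% of the Hox reads in wild type replicate 2 (95% Wilson interval 17.6 to 27.0). They held 7.07% (4.18 to 11.7) in wild type replicate 1, 6.25% (2.90 to 12.97) in Top2b-low replicate 1 and 9.41% (4.85 to 17.5) in Top2b-low replicate 2. Wild type replicate 2 was thus the library that stood apart in genes 6 to 8, its interval touching none of the other 3. It cleared that of Top2b-low replicate 2 only narrowly (17.55 against 17.49), and the intervals cover counting error only.

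**Figure D5:**
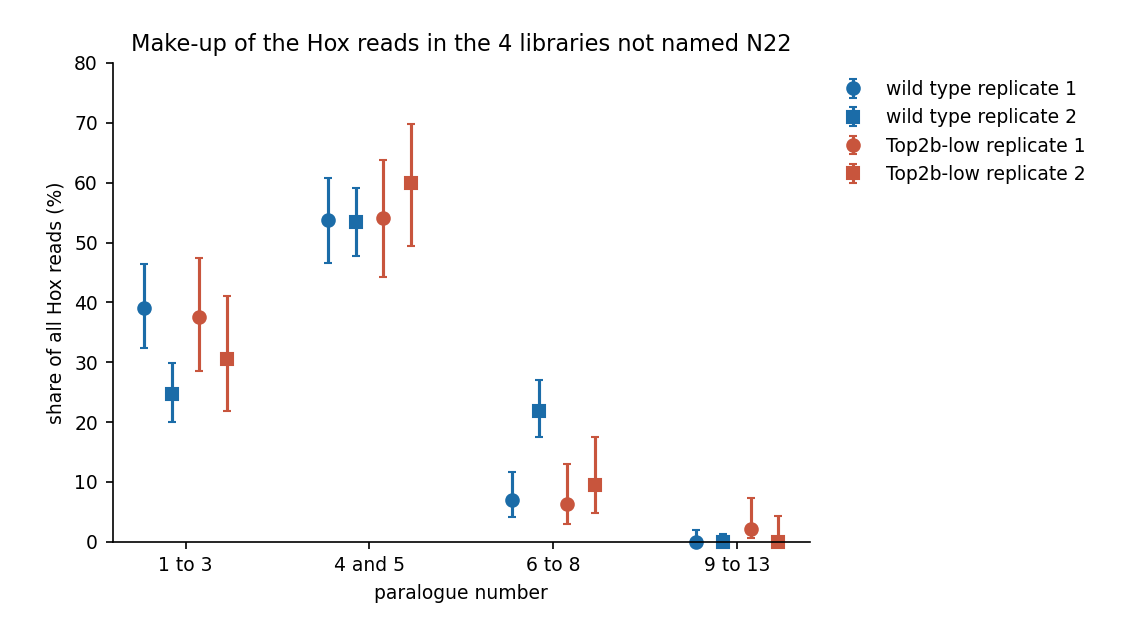
Share of all Hox reads of a library (vertical axis, percent) by paralogue number (horizontal axis) in the 4 libraries outside N22, with 95% Wilson intervals as bars. Numbers 4 and 5 hold at least 53.4% in all 4, and numbers 6 to 8 hold 21.9% in wild type replicate 2 and 6.25% to 9.41% in the rest.

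Single genes carried this difference. Hoxb8, a gene of the spinal cord that also marks a microglial lineage, stood at 42.6 normalised counts in wild type replicate 2 and at 4.86, 3.69 and 3.64 in wild type replicate 1 and Top2b-low replicates 1 and 2. Hoxb6 stood at 25.1 in the former and at 6.07, 2.46 and 2.43 in the latter. By paralogue group wild type replicate 2 over replicate 1 was 9.03 for group 8, 2.84 for group 6, 2.15 for group 5, 1.15 for group 4 and 0.992 for group 3. For group 7 it was 7.22, on 1 read in replicate 1. For groups 1 and 2 it was 0.295 and 1.59. The gap between the 2 wild-type libraries was thus widest in groups 6 to 8 and followed no single order below them. A list of 12 genes of spinal and sensory neurons holds several, such as Penk and Tac1, that the striatum also expresses. This list summed to 3971 and 3967 normalised counts in wild type replicates 1 and 2, so it did not set replicate 2 apart. In Top2b-low replicates 1 and 2 it summed to 4511 and 4027, above both wild-type sums.

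The genotype ratio depended on this library in the high-numbered genes and less so in the low-numbered ones. For genes 1 to 3 the Top2b-low mean was 0.427 times the wild-type mean and 0.434 times wild type replicate 1 alone. For genes 4 and 5 the ratios were 0.399 and 0.524. For genes 6 to 8 they were 0.178 and 0.541. Within this band the ratio to wild type replicate 1 alone was 0.252 for group 6, 1.51 for group 7 and 0.880 for group 8. Group 7 rests on 1 read in that library. Genes 1 to 3 summed to 87.5 and 90.2 normalised counts in the 2 wild-type libraries and to 44.3 and 31.6 in the Top2b-low libraries.

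The same held by cluster. In clusters C and D the 2 wild-type libraries were close, and the Top2b-low mean was 0.319 and 0.394 times that of both and 0.298 and 0.341 times wild type replicate 1. In cluster B, which holds Hoxb6 and Hoxb8, the ratio was 0.327 with both and 0.540 with replicate 1 alone, and in cluster A 0.535 and 0.689. In group 3 alone, which spans 3 clusters, both wild-type sums were near 63 (63.2 and 62.7 normalised counts), and the Top2b-low mean was 0.428 times theirs.

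Other hindbrain genes were set beside the Hox genes in the same 4 libraries. Of 22 tested genes of hindbrain neurons 15 had a lower level in Top2b-low, with a median log2 difference of −0.11, and none passed limma. The sum of the list was 8118 and 7847 normalised counts in wild type replicates 1 and 2 and 7169 and 6591 in Top2b-low replicates 1 and 2, so that, unlike the Hox sum, it was highest in wild type replicate 1. Slc6a5 had a log2 difference of −0.90 ± 0.15 (SE; limma adjusted p = 0.426) and Glra1, the glycine receptor subunit of brainstem and cord, one of −0.84 ± 0.20 (adjusted p = 0.951), with Glra1 at 295 and 315 normalised counts for wild type and 213 and 135 for Top2b-low. These 2 genes were, like the Hox sum, highest in wild type replicate 2 and lowest in Top2b-low replicate 2 outside N22. Glra1 was picked once values were known, and the list did not share this order throughout. Skor1 and Skor2, of the same list, had log2 differences of −0.17 and 0.17. Skor2 was highest in Top2b-low replicate 2, at 48.6 normalised counts.

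Markers that lie further forward did not share the order of the Hox sum. The serotonergic and noradrenergic list summed to 656 and 293 for wild type and to 418 and 521 for Top2b-low, so the groups overlapped, and Tph2, which makes serotonin, was lowest in wild type replicate 2 at 53.9 normalised counts. Of the 19 granule cell genes 7 were lower in Top2b-low, with a median log2 difference of 0.06, and of the 19 Purkinje cell genes 9. Among all genes with a mean of at least 2 the share was 51.7%. The forebrain list summed to 52406 and 52910 for wild type and to 65248 and 60361 for Top2b-low, with a median of 0.06. Lbx1 and Tlx3, which hindbrain and cord neurons share, do not lie further forward, and they differed from each other. Lbx1 stood at 53.4 and 46.4 normalised counts for wild type and at 41.8 and 40.1 for Top2b-low (log2 difference −0.28). Tlx3 stood at 37.7 and 23.8 against 43.1 and 26.7 (0.17).

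Gene lists differed between these libraries in both directions. Of 20 lists, marker lists and lists of genes tied to the Hox clusters, the sums of 10 did not overlap between genotypes. Of these, 4 were lower and 6 higher in Top2b-low, and nothing is read from this count. Single genes lay wholly lower in 17.7% of the 22263 with a mean of at least 2. The non-coding genes of the clusters were 1 of the 4 lower lists, at 29.2 and 57.7 normalised counts against 18.5 and 25.5. Oligodendrocyte genes summed to 147328 and 145522 normalised counts for wild type and to 137811 and 134036 for Top2b-low, and genes of the meninges to 5092 and 5127 against 5579 and 5278. The genes next to the Hox clusters summed to 47564 and 49598 against 47018 and 45150. The widest gap was in blood. Blood genes summed to 9304 and 10721 normalised counts for wild type and to 114526 and 30507 for Top2b-low. Of 9 tested blood genes 4 had an unadjusted limma p under 0.05 (Hba-a2, Hbb-bs, Hbb-bt and Alas2), none passing the adjustment. Among all 17391 tested genes 818 had such a p, in either direction. In that list Ly6g, a neutrophil gene, was at 0 in all 4 libraries. The parts of blood content, of hindbrain and cord content and of the genotype in the Hox difference were not tested.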

How the data were processed

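Per the labels' protocols, left brains of 6 male mice gave polyadenylated RNA for directional libraries. The table that the authors deposited holds a signal, the normalised count of each gene in each library. RSEM and the mm39 build were used per the submitters' processing notes, while the sources used here name no version, aligner, annotation or strand setting. All values (100%) were whole multiples of 1 step per library (tolerance 1e-06), so reads were recovered. The authors' factors equalled DESeq2 size factors. GENCODE vM21 gave symbols for 51498 identifiers.

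Tests used limma 3.58.1 (trend, two-sided) in R 4.3.3 on log2(normalised count + 1) for 17391 genes with a mean of at least 10, Benjamini-Hochberg adjusted at 0.05. The N22 comparison was adjusted for genotype. Alternatives were edgeR 4.0.16, DESeq2 1.42.0, other filters, pseudocounts and scalings, and leaving out libraries. On the recovered reads edgeR placed 2428 genes higher and 2704 lower in the N22 comparison. Named were Top2b, the Hox genes with a mean of at least 10, other members by level, and up to 4 members of each list by smallest p in the N22 comparison. Glra1, Sycp1 and the non-coding genes were picked once values were known. The members and lists were chosen with earlier results of these data known. The fits were tested on simulated data. One member is counted in the sums but is not reported by itself here.

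Replicate numbers were checked for pairing. Deviations from the group means correlated at 0.33, 0.35 and 0.68 between libraries of the same number, all above 0.1. The main tests used no pairing, and the replicate number entered only as a block in an alternative fit. Any pairing by number rests on the values alone and mainly on the N22 pair. The crossed matchings of replicates 1 and 2 gave 0.37 (wild type replicate 1) and 0.24 (wild type replicate 2), so replicates 1 and 2 are not told apart, and among the 4 libraries outside N22 the difference between replicates 1 and 2 correlated at 0.033 between genotypes. The series text counts mice, so libraries were taken as separate animals.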

Additional observations from a re-analysis of the deposited data

How the results depend on the processing

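The 5 Hox genes called lower in the N22 libraries were called under each alternative that tested them, and 12 of 14 were called with a minimum mean of 2 and 11 of 23 with none. Their adjusted p ran up to 0.0368 over the alternatives. With a minimum mean of 50 no Hox gene is tested. Between genotypes outside N22 no Hox gene was called under the alternatives, except 1 of 23 with no minimum, and so too 1 in the interaction. That gene is Hoxa6 (1 read in each wild-type library, 0 in both Top2b-low ones). The log2 difference of Hoxb3 outside N22 ran from −1.87 without Top2b-low replicate 1 to −0.84 without Top2b-low replicate 2. Each of these fits left 1 Top2b-low library.

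The ratio of summed levels between genotypes ran from 0.302 to 0.495 when single libraries were left out, the highest without wild type replicate 2. The log2 difference of Hoxa5 ran from −1.04 without wild type replicate 1 to 0.20 without wild type replicate 2 (limma adjusted p = 0.999 for the latter). With the replicate number as a block, 5 Hox genes were called in the N22 comparison and 0 in each genotype comparison, where Hoxb4 had an adjusted p of 0.511 outside N22.

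Over all genes, calls in the N22 comparison were 1963 higher and 2901 lower, 798 and 1383 without limma's trend, 678 and 1267 without wild type replicate 3, and 376 and 1335 without Top2b-low replicate 3. Between genotypes outside N22 they were 0, 5 higher and 13 lower with the block, 274 and 240 with no minimum, and up to 24 and 157 (without Top2b-low replicate 1). The cause of these shifts was not tested. The comparison outside N22 had 4 libraries, and 6 of the 14 members with a mean of at least 2 had 3 reads or fewer in a Top2b-low library, which limits what it could show. The interaction could not be fitted without either N22 library.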

Other observations

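Other homeobox genes outside the Hox clusters were also lower in the N22 libraries. Of 21 tested members of related classes 7 fell (33.3%, against 16.7% of all genes) and 3 rose (14.3%, against 11.3%) in limma with genotype in the model. En2, which shapes the border of midbrain and hindbrain and is expressed in the adult cerebellum, stood at 564 to 646 normalised counts in the 4 libraries outside N22 and at 30.6 and 29.6 in the N22 pair (log2 difference −4.26 ± 0.11, SE). Barhl2 stood at 117 to 152 outside N22 and at 13.5 and 14.2 within (−3.22 ± 0.18). Tlx3, of the same list, had no read in either N22 library, and Lbx1 stood at 0 and 0.59 there, like the tested Hox genes at or near 0. Between genotypes outside N22 the log2 differences of En2 and Barhl2 were −0.05 and 0.08.

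Of 10 tested genes of a midbrain list 4 fell (40.0%, against 16.7% of all genes) and none rose (against 11.3%) in the N22 libraries. These were En2 again, Tfap2b, Barhl1 and Pax3, the latter at 27.6 to 42.5 normalised counts outside N22 and at 7.11 and 5.32 within. All 4 are also expressed in cells of the cerebellum or hindbrain at some stage.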
